A study of Drosophila melanogaster with 9 samples.

Results

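In 531 places on the large chromosome arms of the Drosophila genome, a region bound by KDM5 in every anti-HA library overlapped 2 or more separate peaks of H3K4me3, the trimethylated form of lysine 4 on histone H3. The regions were found by merging the 4 anti-HA peak lists wherever peaks overlapped by at least 1 bp, keeping regions on 2L, 2R, 3L, 3R and X with a peak in all 4 lists, and counting the H3K4me3 peaks, called marks here, that each overlapped by at least 1 bp. Merging gave 7537 regions, of which 3337 on these arms had a peak in all 4 lists and are called core regions. Among these, 543 overlapped no mark, 2263 overlapped 1 mark and 531, or 15.9%, overlapped several. The regions were thus chosen by the listed anti-HA peaks and H3K4me3 peaks, so counts of either are a description. The wildtype KDM5 list was not used to choose them.

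All samples were chromatin from whole adult females aged 1 to 3 days. Flies of genotype k6801/k6801;gHA-KDM5 made KDM5 with an HA tag from a genomic rescue transgene. They were fed 5% sucrose for 6 hours as control (2 libraries), or the same with paraquat added at 20 mM (2 libraries), a herbicide that causes oxidative stress. Both conditions shared that genotype. Wildtype w1118 flies, with no feeding recorded, gave 1 library with an antibody against KDM5 and 1 with an antibody against H3K4me3, so neither has a replicate. The 3 inputs had no peak list among the files and were not analysed here. Whole flies mix many cell types, so marks and KDM5 that lie side by side in these lists cannot be told apart from marks and KDM5 of different cells. The labels do not say whether the libraries of a condition used different flies, so their spread may be technical.

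KDM5 is a histone demethylase that removes methyl groups from lysine 4 of histone H3, and it is the only member of its family in Drosophila. H3K4me3 is found at the starts of active genes, on nucleosomes next to the start site. A stretch of chromatin with several separate H3K4me3 peaks can hold a nucleosome-poor start site between marked nucleosomes, a pair of genes read in opposite directions, or start sites that lie close together. The lists alone do not separate these cases, and gene models of the dm3 build were not used here.

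The lists held 4853 to 7403 anti-HA peaks, 8948 wildtype KDM5 peaks and 7287 H3K4me3 peaks. Read totals are not in the lists and depth is unknown. The lowest local background recovered from pileup and fold was 12.5 to 14.7 fragments in the anti-HA lists, 13.6 in H3K4me3 and 31.0 in wildtype KDM5. The wildtype KDM5 pileups look scaled, so its value may not be on the scale of the others. On the arms, neighbouring peaks of a list were at least 50 bp apart in the anti-HA lists and at least 101 bp apart in the H3K4me3 and wildtype KDM5 lists, so marks closer than that were never counted as separate. Intervals on shares are 95% Wilson intervals that cover counting error over regions only.

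Most of the regions held a pair of marks. There were 459 with 2 marks, 59 with 3, 11 with 4 and 2 with 5. Their share varied little between arms, from 14.5% (12.0 to 17.4) of the core regions of 3L to 17.4% (14.6 to 20.7) of those of X. They were wide, with a median of 1281 bp against 684 bp for core regions with 1 mark and 491 bp for those with none. Within width classes the share with several marks rose from 4.77% of core regions under 800 bp to 84.3% of those of 1600 bp or more, so width and the number of marks go together in this set. Their anti-HA peaks were strong, with a median of 79.9 for the mean percentile by score within the lists, against 68.4 with 1 mark and 43.2 with none. At like width the regions with several marks were not stronger throughout, with medians of 60.3 against 63.3 for 1 mark under 800 bp, 76.7 against 78.3 from 800 to under 1200 bp, 81.8 against 78.1 from 1200 to under 1600 bp, and 87.0 against 87.9 at 1600 bp or more.

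The separate marks were mostly less than 1000 bp apart. Both marks of a pair overlap the same region, so the choice of regions favours short distances. Over the 618 neighbouring pairs of marks, summits lay a median of 494 bp apart, and the middle 50% of pairs lay 345 to 706 bp apart. The smallest distance was 172 bp and the largest 1729 bp. Among pairs at most 1000 bp apart, the median was 478 bp inside the regions. It was 678 bp for other neighbouring pairs on the arms, and 512 bp for those with neither mark in a core region. The class from 300 to 400 bp held the most pairs, 123 of the 618. From edge to edge, the unmarked gap had a median of 183 bp (127 to 310) and a minimum of 101 bp, the shortest that the list allows. Between the outermost summits the median was 569 bp over all 531 regions, 498 bp with 2 marks and 1114.5 bp with 3 or more.

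**Figure D1:**
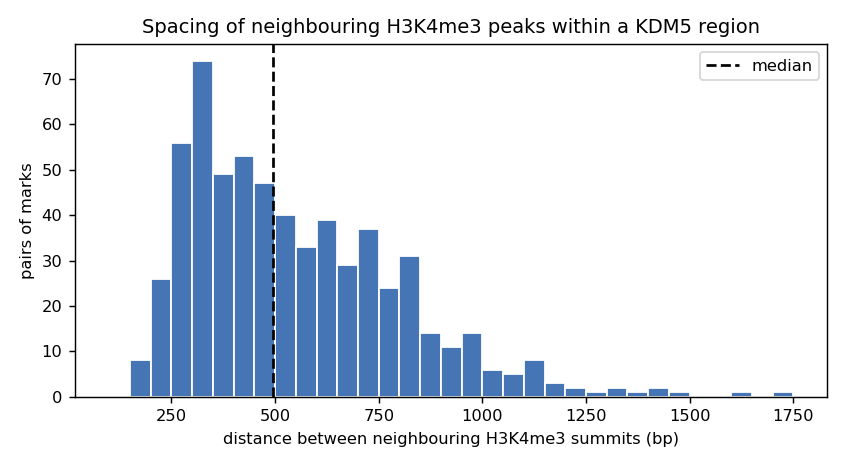
Distance in bp between the summits of neighbouring H3K4me3 peaks in the same KDM5 region (x axis) and the number of the 618 pairs in each 50 bp class (y axis). The dashed line is the median of 494 bp, and most pairs lie between 200 and 900 bp.

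The extremes show the range of layouts. The region with the widest spacing, chrX:7826619-7830205, held 5 marks over 2771 bp, with summits at 0, 473, 1538, 2076 and 2771 bp from the first and pileups of 37, 41, 71, 40 and 72 fragments. The same region also held the most anti-HA peaks. Control library 1 listed 6 there and control library 2 listed 5, while paraquat library 1 listed 3 and paraquat library 2 listed 4. The other region with 5 marks, chr3R:14853045-14855491, had mark summits at 0, 635, 1457, 1757 and 2011 bp, and its strongest anti-HA summit lay at -86, -67, -82 and -80 bp in control 1, control 2, paraquat 1 and paraquat 2. There the KDM5 summits of all 4 lists lay beyond the first mark summit, which belonged to the tallest mark, and their median was still inside that mark. Next in distance between outermost marks were chrX:11243005-11245664 and chrX:10366751-10369505, each with 3 marks, over 2168 and 2030 bp. At the other end, the regions with the smallest distance between outermost marks had them 172 bp apart on chr2R:3849909-3850834, 177 bp on chr3L:19799288-19800071 and 186 bp on chr3R:1462042-1462585. Their marks were close to equal in height, with pileups of 33 and 33, 35 and 39, and 37 and 33 fragments.

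The KDM5 summit usually lay on one of the marks and less often in the gap between them. In each library the summit is that of its strongest peak in the region. It fell inside a mark in 86.8% (83.7 to 89.4) of the regions in control library 1, 80.6% (77.0 to 83.7) in control library 2, 86.3% (83.1 to 88.9) in paraquat library 1 and 74.0% (70.1 to 77.6) in paraquat library 2. The share was lowest in paraquat library 2, and the other paraquat library lay between the control libraries. In the gap between marks lay 10.2%, 14.9%, 10.7% and 19.4% of the summits in the same order, and 3.01% to 6.59% lay outside the marks. In wildtype flies, where the list took no part in choosing the regions, 87.6% (84.5 to 90.1) of the KDM5 summits were inside a mark, 6.59% (4.78 to 9.03) in a gap and 5.84% (4.14 to 8.17) outside.

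These shares can be set against the layout of the regions. Marks took up 55.7% of the width of a region on average, gaps 22.1% and the stretches outside the marks 22.3%. Summits were therefore inside marks more often than the covered width, and this excess was not tested. It was also present with 1 mark. In those regions the mark took up 54.8% of the width, and 75.5% to 84.5% of anti-HA summits and 82.2% (80.6 to 83.7) of wildtype KDM5 summits were inside it. Over all 3337 core regions, 69.9% had the median anti-HA summit and 69.7% had the wildtype KDM5 summit inside a mark. Of the wildtype summits in the regions with several marks, 24 lay outside the anti-HA region, and the wildtype KDM5 peaks there had a median width of 1634 bp.

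**Figure D2:**
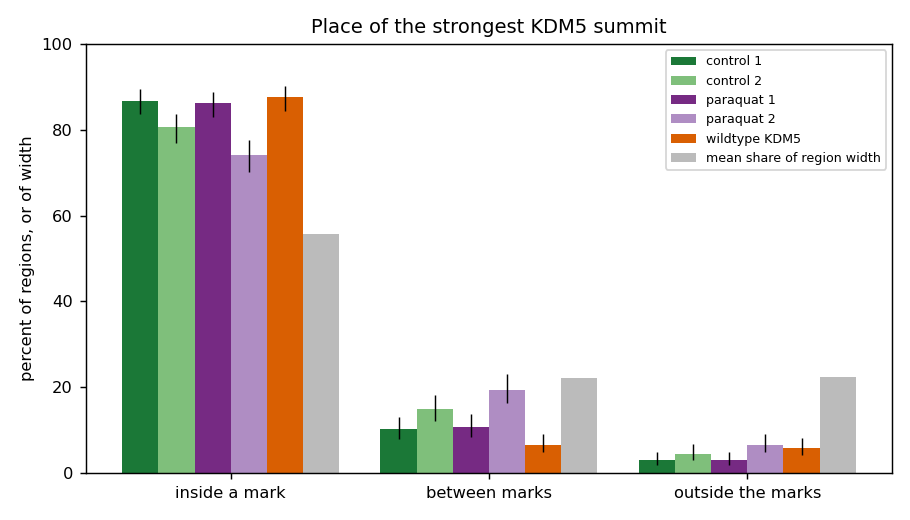
Percent of the 531 regions (y axis) whose strongest KDM5 summit lay inside an H3K4me3 peak, between the marks or outside them, for each library (coloured bars, with 95% Wilson intervals), beside the mean percent of region width in each place (grey). Bars inside a mark reach 74.0% to 87.6%, above the 55.7% of width.

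Measured between summits, KDM5 lay between the outermost marks in somewhat more than an even share of the regions. The anti-HA summit lay between the outermost mark summits in 61.0% (56.8 to 65.1) of regions in control 1, 61.8% (57.6 to 65.8) in control 2, 63.7% (59.5 to 67.6) in paraquat 1 and 61.4% (57.2 to 65.4) in paraquat 2. The wildtype KDM5 summit did so in 54.8% (50.5 to 59.0). The stretch between the outermost mark summits took up 49.4% of the region width on average. The 4 anti-HA lists placed the summit between the marks together in 215 regions, and together not between them in 90. In the former the wildtype summit was between the marks in 76.3% (70.2 to 81.5), and in the latter in 26.7% (18.6 to 36.6). The median of the 4 anti-HA summits lay between in 65.2% (61.0 to 69.1), but this position can fall where no library has a summit, since the 4 summits of a region spanned a median of 200 bp.

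Distances to the nearest mark were short. The median distance from the KDM5 summit to the nearest mark summit was 72 bp in control 1, 78 bp in control 2, 66 bp in paraquat 1, 91 bp in paraquat 2 and 69 bp in wildtype KDM5. In regions with 1 mark the distances were 77, 86, 79, 95 and 76 bp in the same order. A KDM5 summit set apart in the middle was rare. Of the 531 regions, 53, or 9.98% (7.71 to 12.8), had the summit between the outermost marks and 100 bp or more from every mark summit in all 4 anti-HA lists, and 36 of them also did so in the wildtype KDM5 list.

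The position of the summit varied with the spacing of the marks. Among regions with 2 marks, 155 had summits under 400 bp apart, 226 had 400 to under 800 bp and 78 had 800 bp or more. The wildtype KDM5 summit lay between the marks in 40.6% (33.2 to 48.5), 48.7% (42.2 to 55.2) and 83.3% (73.5 to 90.0) of these classes. The stretch between the mark summits took up 39.7%, 46.6% and 60.4% of the region width, and in the widest class the counting interval of the share between the marks lay above the share of width. The anti-HA shares were 34.8% to 49.7% in the closest class and 74.4% to 88.5% in the widest, over the 4 lists. In the widest class, 96.2% of wildtype KDM5 summits were inside a mark and 3.85% in the gap, so most of them lay within a mark on the side that faced the other mark. The distance to the nearest mark summit was larger in wider classes, with medians of 55, 68.5 and 91.5 bp for wildtype KDM5 and 53.5, 77 and 158 bp for the median anti-HA summit. That median summit lay in the gap in 12.3% of the closest and 23.1% of the widest class. By library, the shares inside a mark in the closest and the widest class were 77.4% and 64.1% in paraquat 2, 76.8% and 91.0% in paraquat 1, 77.4% and 91.0% in control 1, and 78.7% and 83.3% in control 2.

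**Figure D3:**
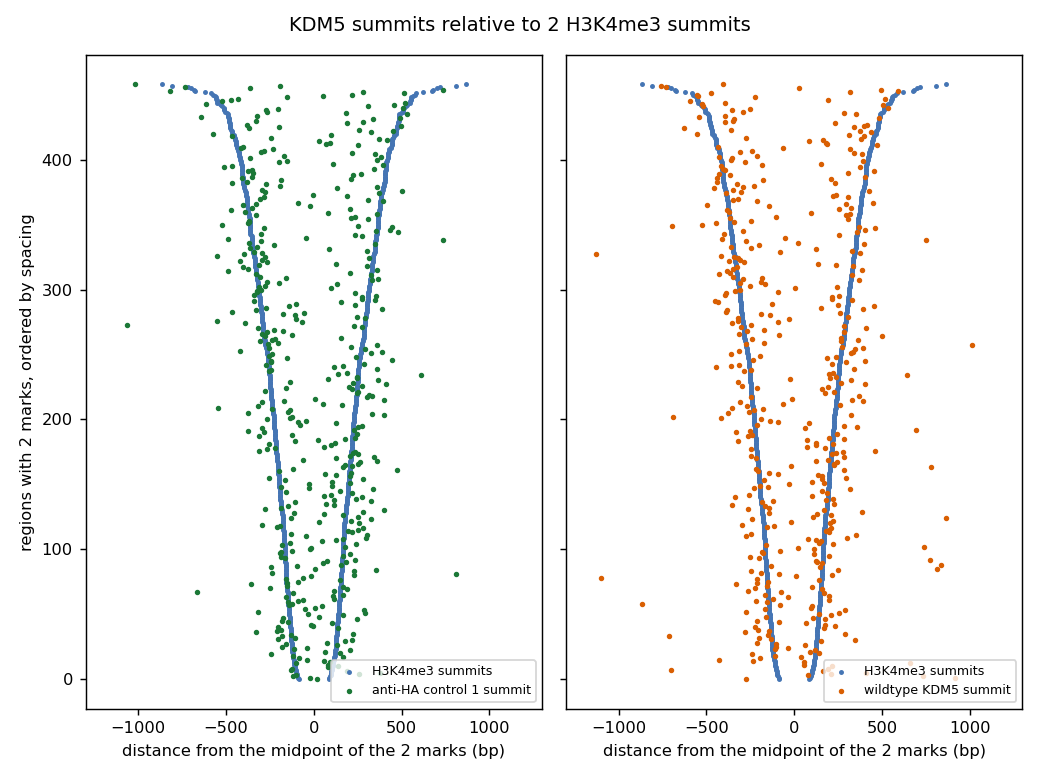
Each row is 1 of the 459 regions with 2 marks, ordered by spacing (y axis), and the x axis is the distance in bp from the midpoint of the mark summits (blue). Green points are the strongest anti-HA summit of control library 1 and orange points the wildtype KDM5 summit (6 orange points lie beyond the axis). Points follow the mark summits outward as spacing grows and leave the middle of wide pairs thinly filled.

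The strongest regions with 2 marks and a summit between them in all 4 anti-HA lists show how close to a mark it lay, and the 5 with the highest mean percentile are named here. In chr3R:5384406-5386260 the marks were 458 bp apart with pileups of 71 and 36, and the anti-HA summits lay 105, 122, 113 and 82 bp from the first mark in control 1, control 2, paraquat 1 and paraquat 2. The fold enrichments there were 7.40, 7.57, 7.16 and 7.28 in the same order, so the 4 libraries were alike. In chr3L:20294596-20296142 the marks were 589 bp apart with pileups of 42 and 60, and the summits lay at 587, 402, 582 and 426 bp, near the taller mark in number 1 and farther inside in number 2. In chr3R:23113580-23115073, with marks 701 bp apart, all 4 summits lay 5 to 27 bp from the taller first mark. In chrX:10751433-10752650, with marks of 71 and 31 fragments 465 bp apart, they lay 84 to 125 bp from the taller mark. In chr3R:21867374-21868773, with marks 840 bp apart, control 1 had its strongest summit at 55 bp and the other lists at 707 to 748 bp, nearer to the taller mark. The wildtype KDM5 summits of these 5 regions lay at -459, -26, -7, -23 and 68 bp from the first mark summit, in the order named, so 4 of them were not between the marks. In the regions on 3L and at 21867374 on 3R the wildtype summit was at the lower mark, unlike most of the anti-HA summits.

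The 3 strongest regions in which every anti-HA summit lay beyond the outermost mark summits had marks of unequal height, and the median summit was still inside a mark in each. In chr3R:3011460-3012493 the marks had pileups of 31 and 92 and lay 644 bp apart. The anti-HA summits were at 653, 661, 653 and 683 bp, to the far side of the taller mark's summit. The mean fold was 8.80 ± 0.40 (SD, n = 4 libraries of both conditions). In chr2L:7026308-7027416 the pileups were 31 and 61 at 661 bp, with summits at 685 to 711 bp. In chr3L:17008557-17009357 they were 34 and 77 at 328 bp, with summits at 332 to 367 bp.

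The flanking marks were mostly similar in height. The lower of the outermost marks had a median of 0.829 of the pileup of the taller one (interquartile range 0.714 to 0.924). In 56.3% (52.1 to 60.5) of the regions it reached at least 80% of the taller, and in 8 regions it stayed under 50%. The taller mark was also wider, with a median of 377 bp against 201 bp. Neighbouring marks elsewhere on the arms with summits at most 1000 bp apart had a ratio of 0.853 (interval of the median 0.837 to 0.867) over 639 pairs, against 0.829 (0.810 to 0.846) for the 585 such pairs inside the regions. For the 194 of those pairs with neither mark in a core region it was 0.889 (0.868 to 0.914), an interval wholly above that of the pairs inside the regions, and the difference was not tested. The lower mark had a median pileup of 36 fragments (interquartile range 33 to 40), not far above the lowest value of 27. The taller one had a median of 45 (40 to 51) and reached 92. No outer mark was under 27, which limits how low the ratio can be.

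Symmetry in distance was read from the arms on either side of the KDM5 summit. Among the 346 regions whose median anti-HA summit lay between the outermost marks, the shorter arm had a median of 121 bp and the longer arm 503 bp. The shorter arm took up a median of 0.213 of the spacing. It cannot exceed 0.5, and summits placed evenly between the marks would give 0.25. It took up at least 40% in 56 of the 346 regions (16.2%) and under 10% in 92 (26.6%), where even placement would give 20% for each. The differences from even placement were not tested. The arms use the median anti-HA summit, which can fall where no library has a summit. The shorter arm's share was 0.174 to 0.203 with each anti-HA library left out in turn, and 0.178 with the summit of the highest-percentile peak. Under the other alternatives it was 0.198 to 0.214. Regions with only a pair of marks had 0.198, 0.180 and 0.210 from the closest to the widest spacing class. All of these lay below 0.25. Regions symmetric in both senses, with a shorter arm of at least 40% and a lower mark of at least 80%, numbered 34 of 531, or 6.40% (4.62 to 8.81). The sides were near even. The mark with the lower coordinate was the taller in 266 regions, and the median KDM5 summit lay on its side of the midpoint in 270.

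The KDM5 summit lay nearer to the taller of the outermost marks. Of the 510 regions with marks of unequal pileup, this was so in 73.3% (69.3 to 77.0) in control 1, 76.1% (72.2 to 79.6) in control 2, 72.4% (68.3 to 76.1) in paraquat 1 and 73.5% (69.5 to 77.2) in paraquat 2. All 4 shares lay within 4 percentage points. In wildtype KDM5 it was 68.4% (64.3 to 72.3). The share followed the difference in height. Where the lower mark had under 70% of the pileup of the taller, 88.5% to 89.4% of anti-HA summits and 86.7% (79.2 to 91.8) of wildtype summits lay nearer to the taller mark. Where it had 90% or more without being equal, the shares were 57.9% to 64.1% and 53.8% (45.7 to 61.7), and the last interval includes an even split.

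**Figure D4:**
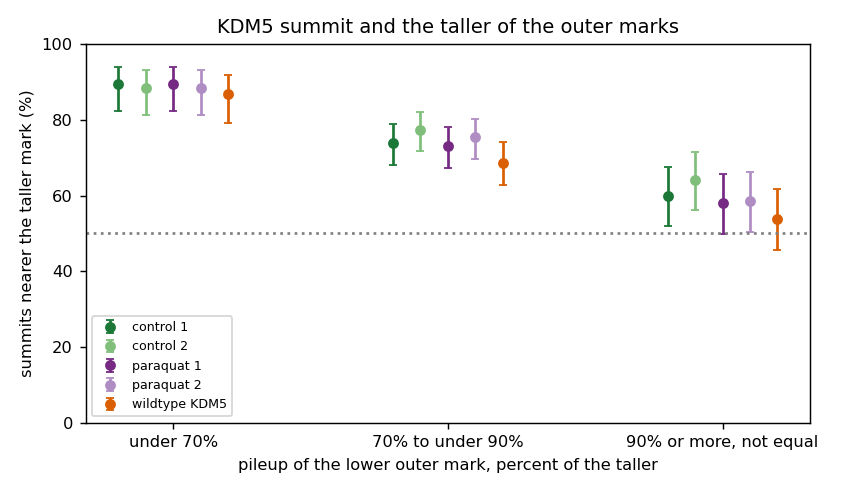
Percent of regions whose strongest KDM5 summit lay nearer the taller outer mark (y axis) in 3 classes of the lower mark's pileup as a percent of the taller (x axis), by library, with 95% Wilson intervals. The dotted line marks 50%. Shares fall from 86.7% to 89.4% in the most unequal class to 53.8% to 64.1% in the most equal.

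The lists often chose the same mark. All 4 anti-HA lists had their summit nearest to the same mark in 335 regions, or 63.1% (58.9 to 67.1). In 267 of these, or 79.7% (75.1 to 83.7), the wildtype KDM5 summit was nearest to that mark too. Where the heights of these 335 gave a single tallest mark, the shared mark was the tallest in 276 of 328 regions. In the 72 regions with 3 or more marks, an inner mark was nearest to the anti-HA summit in 50.0% to 55.6% by library. For the wildtype summit this was so in 40.3% (29.7 to 51.8). Inner marks made up 36.6% of the marks on average, and the tallest mark was an inner one in 45.8% (34.8 to 57.3). Among these regions, chrX:9502496-9503665 held 4 marks over 1095 bp with pileups of 42, 42, 56 and 29, and its anti-HA summits lay at 559 to 613 bp, closest to the tallest mark at 713 bp. In chr2L:13176174-13178218, with marks at 0, 314, 764 and 1774 bp, the number 1 libraries had their summit at 804 and 825 bp, near the tallest mark, and the number 2 libraries at 311 and 329 bp, on the second. In chrX:19372696-19375321, the anti-HA summit was at 545 bp in control 1 and at 1267 to 1338 bp in the other lists, near the tallest mark at 1339 bp.

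Regions with several marks often held several KDM5 peaks, and the number depended on the library. Each peak has 1 summit in the lists. A region held 2 or more anti-HA peaks in 63.7% of cases in control 1, 47.1% in control 2, 43.3% in paraquat 1 and 32.8% in paraquat 2. In regions with 1 mark, which were narrower, the shares were 16.4%, 14.7%, 8.40% and 13.0%. At like width the numbers were closer. At 1600 bp or more, regions with several marks averaged 2.51, 2.01, 1.94 and 1.55 peaks in the same order, and the 27 regions with 1 mark averaged 2.44, 1.93, 1.74 and 1.37. From 1200 to under 1600 bp the averages were 2.01, 1.83, 1.70 and 1.43 against 1.91, 1.60, 1.54 and 1.46. They were 1.42, 1.35, 1.19 and 1.29 against 1.24, 1.23, 1.13 and 1.20 from 800 to under 1200 bp. Under 800 bp they were 1.19, 1.13, 1.04 and 1.17 against 1.10, 1.09, 1.04 and 1.09. Regions with several marks had the higher average in each class and list except paraquat 2 from 1200 to under 1600 bp. These differences were not tested. Only 132 of the 531 had the same number in all 4 lists. There were 112, or 21.1% (17.8 to 24.8), with 1 peak in every list, and 64, or 12.1% (9.55 to 15.1), with 2 or more in every list. Over all core regions, 58.4% had 1 peak in every list and 2.58% had 2 or more. Without paraquat library 2, the regions with 1 peak in each remaining list made up 35.5%, and without control library 1 they made up 32.1%. Fewer lists then had to match and the set of regions changed, to 454 and 527, and the cause was not tested.

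A wide spacing, and with it a wide region, went with separate KDM5 peaks. With marks under 400 bp apart, 2 or more peaks were listed in 29.7%, 20.6%, 12.3% and 21.9% of the regions with 2 marks, in control 1, control 2, paraquat 1 and paraquat 2. With marks of 800 bp or more apart, the shares were 92.3%, 74.4%, 71.8% and 48.7%. Each list had higher shares at wider spacing, and paraquat 2 differed least between the classes. In wildtype KDM5 the shares were 1.29% in the closest, 14.2% in the middle and 24.4% in the widest class. The regions also became wider, with median widths of 797, 1301 and 1659 bp from the closest to the widest class. In regions with 1 mark, average peak number differed with width too. It was 1.10 under 800 bp and 2.44 at 1600 bp or more in control 1, and 1.09 and 1.37 in paraquat 2. Spacing classes were not compared at like width, and the part of width was not tested.

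**Figure D5:**
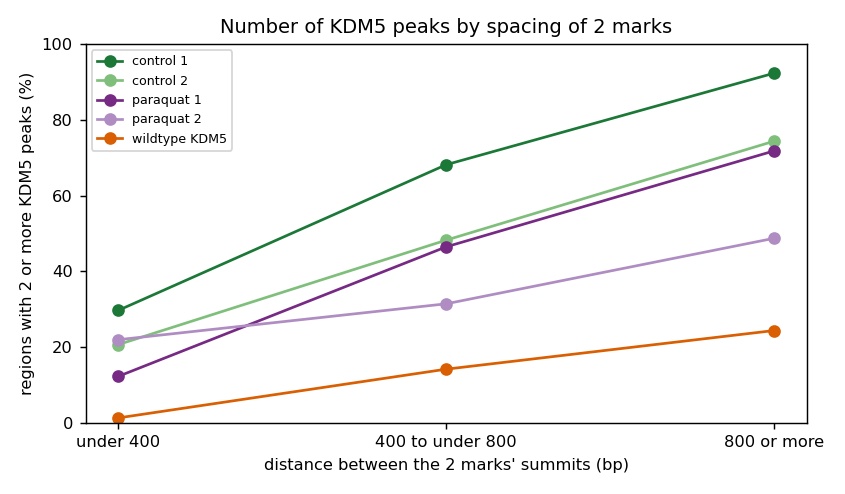
Percent of regions with 2 marks that held 2 or more KDM5 peaks (y axis) by distance in bp between the mark summits (x axis, 155, 226 and 78 regions), by library. Every line rises, from 1.29% to 29.7% in the closest to 24.4% to 92.3% in the widest class. Median region width rises as well, at 797, 1301 and 1659 bp.

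KDM5 peaks spanned all the marks of a region, divided among them, or left a mark without a peak. In control 1, 1 peak overlapped all marks in 180 regions and each mark had a peak of its own in 232. In control 2 these counts were 215 and 139, in paraquat 1 they were 324 and 154, and in paraquat 2 they were 297 and 68. A mark without a peak was found in 83 and 159 regions in the control libraries and in 13 and 151 in the paraquat libraries. In control 2 and paraquat 2 this was more frequent than a peak on each mark. The rest were mixed, with 36 and 18 regions in the control and 40 and 15 in the paraquat libraries. In wildtype KDM5, with its wider peaks, 472 regions had 1 peak over all marks and 45 had a peak on each mark. The arrangement was the same in all 4 anti-HA lists in few regions, with 67 spanned and 19 divided.

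Where KDM5 divided between 2 marks, the taller KDM5 peak was mostly on the taller mark. This held for 154 of 207 such regions in control 1, 93 of 129 in control 2, 97 of 140 in paraquat 1 and 46 of 62 in paraquat 2, between 69.3% and 74.4%. In wildtype KDM5 it held for 30 of 39, or 76.9% (61.7 to 87.4). Their summits lay slightly to the inner side in the median, with a wide spread. The median offset from a mark summit toward the other mark was 25, 27, 32.5 and 33 bp in control 1, control 2, paraquat 1 and paraquat 2, and 28 bp in wildtype KDM5 (44 regions). The interquartile range was -41.75 to 100.5 bp in control 1 and -26.25 to 96.25 bp in wildtype KDM5, and it included both sides in every list. Both summits were offset inward in 36.1% to 45.5% of these regions over the 5 lists, and neither in 14.7% to 19.1%. The regions in this comparison are those where peaks were separate, and few come from the closest pairs. Over all 459 regions with 2 marks, the median inward offset was 18, 23, 22 and 18 bp in control 1, control 2, paraquat 1 and paraquat 2. In wildtype KDM5 it was 3 bp there, with 51.9% (47.3 to 56.4) inward. Besides the region with 5 marks on X, the most anti-HA peaks were summed in chr3L:17417647-17420225 and chrX:548638-550651, with 15 each over the 4 lists. The former held marks of 54 and 41 fragments 1729 bp apart, and the latter 4 marks over 1589 bp.

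Endogenous KDM5 was present at all of the regions. All 531 overlapped a wildtype KDM5 peak, as did 3336 of the 3337 core regions (100% after rounding), so presence does not set them apart. Several wildtype KDM5 peaks, 2 or more, were found in 67 regions, or 12.6% (10.1 to 15.7), against 3.42% of all core regions and 1.72% (1.26 to 2.35) of those with 1 mark. At like width the shares were closer. From 1200 to under 1600 bp, 20.0% (14.2 to 27.4) of regions with several marks and 15.2% (9.29 to 23.9) of those with 1 mark held several wildtype peaks, and at 1600 bp or more 22.1% (16.1 to 29.5) and 18.5% (8.18 to 36.7) did. The intervals overlap in both classes, and the differences were not tested. Several wildtype peaks were found in 18 of the 64 regions with 2 or more anti-HA peaks in every list, and in 2 of the 112 with 1 in every list. The outermost marks were a median of 912.5 bp apart in the 64 and 338.5 bp apart in the 112. These groups thus differ in spacing too, and they were not compared at like spacing.

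The fold enrichment of endogenous KDM5 was nearly the same with 1 mark and with several, in the 1 wildtype library. The median fold enrichment of the strongest wildtype peak was 9.24 (interquartile range 8.31 to 10.1) with several marks, 9.08 (8.08 to 9.91) with 1 mark and 7.54 (6.40 to 8.57) with none. The highest folds were 11.2, 11.3 and 11.2 in the same order, so the folds of strong peaks lay close to a common upper value. Below 800 bp the medians with several marks and with 1 mark were 8.87 and 8.96, and from 800 to under 1200 bp 9.10 and 9.32. From 1200 to under 1600 bp they were 9.27 and 9.13, and at 1600 bp or more 9.80 and 9.61. The tallest mark had a median fold of 2.94 and the lowest 2.31, around the 2.69 of single marks. A tallest and a lowest of several tend to lie on either side of a single value, so this does not show that the marks were alike. The marks of the regions were narrower, with a median of 278 bp (interval of the median 263 to 300) against 382 bp (369 to 391) for single marks.

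The last comparison asked whether paraquat moved KDM5 within these regions. The number of peaks per region was lower in both paraquat libraries. It averaged 1.83 and 1.61 in control 1 and 2, a mean of 1.72 ± 0.153, and 1.50 and 1.38 in paraquat 1 and 2, a mean of 1.44 ± 0.0866 (SD, n = 2 each). The groups did not overlap and the difference of -0.284 exceeded either SD, but with 2 libraries against 2 the exact two-sided permutation test gave p = 0.333, the smallest it can give, and an adjusted p of 1 over 3 differences. Within numbers the difference was -0.331 and -0.237. Peak width moved with it, at medians of 460 and 449 bp in the control and 685 and 577 bp in the paraquat libraries within these regions, and its part in the result was not tested. Regions with 1 mark had means of 1.18 and 1.16 in the control and 1.09 and 1.14 in the paraquat libraries, also lower without overlap. Single regions rarely differed this way. In 49 of the 531, or 9.23%, both paraquat lists held fewer peaks than either control list, against 3.33% of all core regions, and in 5 they held more, against 0.839%. Fewer peaks in both paraquat lists were possible only where both control lists held 2 or more. In control 1 and 2, 63.7% and 47.1% of these regions held 2 or more, against 16.4% and 14.7% of those with 1 mark. The shares were not compared at like width.

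Summit positions did not separate the conditions. The share of regions with the summit between the outermost marks was 61.4% ± 0.533 in control and 62.5% ± 1.60 in paraquat (SD, n = 2 each), a difference of 1.13 percentage points that was smaller than the paraquat spread (exact two-sided permutation p = 0.667, adjusted p = 1). It was 3.85 points without paraquat library 2, 0.474 without control library 1 and 0.525 without paraquat library 1. The median distance to the nearest mark summit was 75 ± 4.24 bp in control and 78.5 ± 17.7 bp in paraquat (SD, n = 2 each), again smaller than the spread (exact permutation p = 1, adjusted p = 1). That difference was 10.75 bp without paraquat library 1, -9.75 bp without paraquat library 2, -0.5 bp without control library 1 and 6.5 bp without control library 2. Within numbers both differences changed sign, at 2.64 and -0.377 percentage points and at -6 and 13 bp. H3K4me3 was mapped only in wildtype flies, so how the marks stood under paraquat was not measured.

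The edge of the definition can be seen in single regions. The members held by the smallest overlap of their second mark were chr2R:8322641-8323822 with 9 bp, chr2R:19793634-19794939 with 11 bp and chr2L:6062993-6063369 with 15 bp, while 495 of the 531 were held by 100 bp or more. Just outside were core regions with 1 mark whose next mark began 2 bp (chr2L:19050947-19051457), 4 bp (chr2R:20402427-20402854) and 5 bp (chr3L:15087391-15087835) beyond the edge. Of the 2263 regions with 1 mark, 55 had another mark within 100 bp of an edge and 606 within 500 bp.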

How the data were processed

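Chromatin immunoprecipitation followed by sequencing was deposited as 1 peak list per library for 6 of the 9 samples. Per the submitters' processing notes, the tools were CASAVA 1.4, Bowtie and MACS2, on build dm3. The other versions, the settings and the inputs used for each list were not given in the sources used here. The labels' protocols give a size selection of 150 to 350 bp. The lists have no header, and their columns were read as those of a MACS2 peak table. Each deposited row holds a pileup signal at the summit, a −log10 p-value, a fold enrichment (a ratio to local background) and a −log10 q-value, all made by the authors' caller for each library alone. Peak lengths and summit positions, in bp as the authors deposited them, were used as well. Starts count from 0 in the lists and from 1 here. Folds and pileups are the authors' values and describe peaks within a list. Pileups of the wildtype KDM5 list look scaled, so its widths and peak numbers do not compare directly with those of the anti-HA lists.

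Regions, overlaps and distances were computed with Python 3.11.15, NumPy 2.4.6 and pandas 2.3.3, intervals with SciPy 1.17.1, and the geometry was tested on simulated lists. Where a library had several peaks in a region, its summit was that of the peak with the highest −log10 p. A percentile is the rank of that value within its list. Conditions were compared over libraries by an exact permutation test with Benjamini-Hochberg adjustment. Named regions are those with most marks, with highest mean percentile and summits between or outside the marks in all 4 anti-HA lists, with widest and narrowest spacing, nearest the overlap threshold, and with most anti-HA peaks. The classes of spacing, width and height, and the comparisons with 1-mark regions and by height, were chosen after the values were seen. The regions and the tests were chosen with earlier results of these data known. Alternatives were an overlap of 50% of each mark, −log10 q of 2 or more for marks or for anti-HA peaks, marks joined across gaps of 150 bp or less, anti-HA peaks merged at 100 bp, other summits, each anti-HA library left out, and a replicate block.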

Additional observations from a re-analysis of the deposited data

How the results depend on the processing

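The number of regions stayed within 1.5 times 531 under every alternative run, from 358 with marks joined across gaps of 150 bp or less (67.4% of the 531 regions were still present) to 528. Joining marks removed the closest pairs by construction, so the median distance between outermost marks became 668.5 bp and the share with 1 anti-HA peak in every library 11.7%. That share was 25.0% with anti-HA peaks merged at 100 bp, and the cause was not tested. Leaving out each anti-HA library gave 27.4% to 35.5% for it, 485 to 565 bp for the distance between outermost marks, 0.174 to 0.203 for the shorter arm's share of the spacing, and -9.75 to 10.75 bp for the paraquat difference in distance to the nearest mark, which reversed without control library 1 (-0.5 bp) or paraquat library 2. With the summit of the highest-percentile peak the shorter arm's share was 0.178. The cause of these changes was not tested. The other 82 results under alternatives kept their direction or stayed within their interval. Same-numbered libraries shared deviations of summits (r = 0.326 across regions, a description), but nothing in the labels says that numbers pair the samples. With a replicate block the paraquat differences were -0.284 peaks per region, 1.13 percentage points and 3.5 bp, and the exact sign-flip test over 2 pairs cannot go below p = 0.5. Unknown depth limits whether a mark or a KDM5 peak that is missing from a list was absent.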
